A study of Mus musculus with 57 samples.

Results

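The tropomyosin genes Tpm1, Tpm2, Tpm3 and Tpm4 and the actin-binding genes Pls3, Tagln, Tagln2, Actn1, Actn4 and Flna were followed in single RM1 mouse prostate cancer cells recovered from bone. They were selected on an earlier result of these data, the lower mouse means of Tpm1 and Pls3 in dormant than in proliferating cells, and listed by name with their relatives. Of the 10 listed genes, 9 were among the 12887 gene features of the table of all cells, and Tagln was not analysed here. Because the dormant to proliferating contrast took part in choosing the genes, every difference between the states of these 9 genes is a description and carries no test.

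RM1 cells with transgenes for the fluorescent protein eCFP and the luciferase Luc2 were stained with PKH26, a membrane dye that is diluted when a cell divides, and given to C57BL/6 mice by intracardiac injection. The dormant group held 28 sorted cells that had kept the dye, from 6 mice. The proliferating group held 29 sorted cells without the dye, from 6 mice, and both groups were sampled in 4 of the mice. Both groups thus share the cell line, both transgenes, the host strain and the injection, they differ in the retained dye, and the mice were taken between day 13 and day 26 after injection. The labels name no host genotype beyond the strain, and each library is 1 cell.

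Tropomyosins are coiled-coil proteins that lie along the actin filament and govern which other proteins reach it. Plastins, alpha-actinins and filamins join neighbouring filaments into bundles and networks, and transgelins bind along the filament side. Tumour cells of epithelial origin express non-muscle forms of these genes, and white blood cells use partly different paralogs, such as the L-plastin gene Lcp1 in place of the T-plastin gene Pls3.

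Sequence around the transcript start is shown for 4 genes: Tpm1 and Pls3, which lay below the whole proliferating range in 6 dormant cells with little eCFP signal described next, and Tpm4 and Tagln2, which reached that range in 3 and 4 of the same 6 cells. Each run is a RefSeq window on GRCm38.p6 from 250 bases before to 50 bases after the start, written 5′ to 3′ on the gene's strand. Capitals mark CATTCC or its reverse complement GGAATG, the core letters bound by TEAD factors.
Tpm1, chr9:67049164-67049463, minus strand: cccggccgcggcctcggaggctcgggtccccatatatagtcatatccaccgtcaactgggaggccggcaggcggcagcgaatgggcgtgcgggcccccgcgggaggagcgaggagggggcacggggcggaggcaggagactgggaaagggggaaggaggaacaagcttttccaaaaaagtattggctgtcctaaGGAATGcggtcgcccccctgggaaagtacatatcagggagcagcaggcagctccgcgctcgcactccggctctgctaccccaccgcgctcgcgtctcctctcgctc
Pls3, chrX:75875133-75875432, minus strand: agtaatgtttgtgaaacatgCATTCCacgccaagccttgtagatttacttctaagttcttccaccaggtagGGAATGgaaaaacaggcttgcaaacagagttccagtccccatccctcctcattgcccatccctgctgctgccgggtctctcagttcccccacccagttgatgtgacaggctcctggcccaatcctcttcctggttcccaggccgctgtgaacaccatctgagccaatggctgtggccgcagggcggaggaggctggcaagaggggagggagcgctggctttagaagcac
Tagln2, chr1:172499996-172500295, plus strand: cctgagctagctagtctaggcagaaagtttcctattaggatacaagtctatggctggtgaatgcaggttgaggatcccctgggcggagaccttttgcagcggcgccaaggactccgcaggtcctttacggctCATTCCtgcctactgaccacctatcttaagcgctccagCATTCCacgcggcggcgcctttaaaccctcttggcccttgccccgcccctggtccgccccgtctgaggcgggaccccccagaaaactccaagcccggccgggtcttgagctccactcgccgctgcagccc
Tpm4, chr8:72135038-72135337, plus strand: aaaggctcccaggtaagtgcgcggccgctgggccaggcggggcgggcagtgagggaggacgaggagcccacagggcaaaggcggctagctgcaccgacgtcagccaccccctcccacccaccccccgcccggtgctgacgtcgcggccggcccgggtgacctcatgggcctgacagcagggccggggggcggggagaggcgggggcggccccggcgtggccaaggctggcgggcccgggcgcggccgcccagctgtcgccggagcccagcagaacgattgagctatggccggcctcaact

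RefSeq windows were found for all 9 analysed genes, 12 windows in total. CATTCC on either strand was present in at least 1 window of 5 of them: Tpm1, Pls3, Tagln2, Actn4 and Flna. Among 32851 promoter windows of the same length 14.7% held it. That share is by window and the 5 is by gene, and Pls3 and Tpm3 had more than 1 window. Counted to the first base of the match, in Tpm1 it began 56 bases before the start, in Tagln2 the 2 matches began 118 and 80 bases before it, and in the first Pls3 window they began 230 and 179 bases before it. No window of the other 4 genes, Tpm2, Tpm3, Tpm4 and Actn1, held these letters. The CArG box, the motif of serum response factor, was searched on both strands and was found in 0 of the 9 genes and in 1.63% of all windows. The letters TATAAA, searched on both strands, were found in 0 of the 9 genes and in 13.6% of all windows. None of the 3 motifs overlaps another in the windows printed, and a match or its absence describes the letters of the window alone.

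Depth and cell make-up bear on every value that follows. Values are normalised reads per gene and cell as the authors deposited them, and between 945351 and 5306777 reads per cell could be recovered from them. Of the 28 dormant cells, 6 had an eCFP value under 100 and are called low-label. They came from 4 mice (2 each from mice 369 and 360, and 1 each from mice 244 and 1184) and were all the dormant cells of mice 244 and 360. Because eCFP chose these cells, other RM1 genes were looked at without it. The summed values of Luc2 and the keratin genes Krt8 and Krt18 were between 2.3 and 232 in the low-label cells, against 3849 to 39891 in the 22 labelled dormant cells and 3396 to 37107 in the 29 proliferating cells. The low-label cells had between 10 and 18 of 18 pan-leukocyte genes above 0, and genes of more than 1 blood lineage were present among them. In these cells 8 monocyte and macrophage genes summed to 73376 to 217961, with 2 to 8 of the 8 above 0. The sum of 7 neutrophil genes was 0 at the lowest, 17.6 at the median and 695526 at the highest. Of 5 erythroid genes 3 were in the table, and their sum reached 8527.5 with a median of 0. These values go against the label of tumour cell for the 6 cells, and no cell type is given to them here. At least 5 of the 18 genes were above 0 in 15 dormant cells, the 6 low-label cells included, and in 12 proliferating cells, and these are called leukocyte-rich. That number is permissive, since Arhgdib alone was above 0 in all 57 cells; at least 10 of the 18 were above 0 in 12 dormant cells and 1 proliferating cell. Of 10 stromal, pericyte and smooth muscle genes 4 were in the table, and these, among them the smooth muscle actin gene Acta2, were at 0 in the 6 low-label cells. Per the labels, each library batch held cells of a single state, so that the effect of a batch and that of a state cannot be told apart.

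Tpm1 lies on chromosome 9 (67022590 to 67049406, minus strand, GRCm38) and encodes a tropomyosin of stress fibres and, in muscle, of the thin filament. In the 6 low-label dormant cells it had 4.0, 6.3, 134, 198, 220 and 253 normalised reads. The 22 labelled dormant cells held 0 at the lowest, 2139 at the median and 6122 at the highest. The 29 proliferating cells held 746 at the lowest, 3162 at the median and 7627 at the highest. The low-label cells lay wholly below the proliferating cells, while the labelled dormant cells spread over most of the proliferating range. Of the 22 labelled dormant cells 1, from mouse 452, had no Tpm1 read, and the next lowest held 599.

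Pls3 lies on chromosome X (75785654 to 75875182, minus strand) and encodes T-plastin, which bundles actin filaments in cells outside the blood lineages. Its values in the 6 low-label cells were 0, 0, 1.2, 1.3, 1.7 and 12.5, which stand for 0 to 4 recovered reads a cell. Labelled dormant cells held 0 at the lowest, 1465 at the median and 5604 at the highest, and 2 of the 22 were at 0. Proliferating cells held 461 at the lowest, 2113 at the median and 5273 at the highest. No low-label cell came near the lowest proliferating cell, and the labelled dormant and proliferating ranges overlapped over nearly their whole length. Lcp1, the L-plastin gene of leukocytes, showed the opposite pattern, with a median of 5843 in the low-label cells and 0 in both the labelled dormant and the proliferating cells. Pls3 exceeded Lcp1 in 0 of 6 low-label cells, 18 of 22 labelled dormant cells and 29 of 29 proliferating cells. Lcp1 is among the 18 genes that define leukocyte-rich cells, so its part of this contrast is not independent of that definition.

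Tpm2 lies on chromosome 4 (43514711 to 43523765, minus strand) and encodes beta-tropomyosin. It was at 0 in 5 of the 6 low-label cells and at 148 in the other, a cell of mouse 360. Among labelled dormant cells the values were 0 at the lowest, 203 at the median and 761 at the highest. Among proliferating cells the values were 0 at the lowest, 242 at the median and 983 at the highest. Only 1 labelled dormant cell and 2 proliferating cells had no Tpm2 read, so the labelled dormant and proliferating cells again covered the same range.

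Tpm3 and Tpm4, which encode the tropomyosins found in most non-muscle cells, were inside the proliferating range in 6 of 6 and 3 of 6 low-label cells. Tpm3, on chromosome 3 (90072649 to 90100902, plus strand), had 960, 1535, 1673, 1849, 2159 and 2406 normalised reads in the low-label cells. In the labelled dormant group it was at 4.8 at the lowest, 1810 at the median and 3149 at the highest. In the proliferating group it was at 958 at the lowest, 2232 at the median and 4336 at the highest. For Tpm3 the low-label cells therefore lay inside the ranges of both other groups. Tpm4, on chromosome 8 (72134975 to 72153142, plus strand), had 2.7, 919, 920, 1912, 2387 and 4370 in the low-label cells. The labelled dormant cells held 1270 at the lowest, 2532 at the median and 7304 at the highest. The proliferating cells held 1579 at the lowest, 3844 at the median and 8523 at the highest. In 3 of the 6 low-label cells Tpm4 was inside the proliferating range, and the cell with 2.7, from mouse 1184, was far below it. Part of Tpm3 and Tpm4 sequence is shared with other annotated genes: 23.2% of 50-base stretches of Tpm3 transcripts also occur in Tpm3-rs7 and 15.7% of those of Tpm4 in other genes. The submitters name RSEM for quantification, and its settings for such shared reads are not given in the sources used here.

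**Figure D1:**
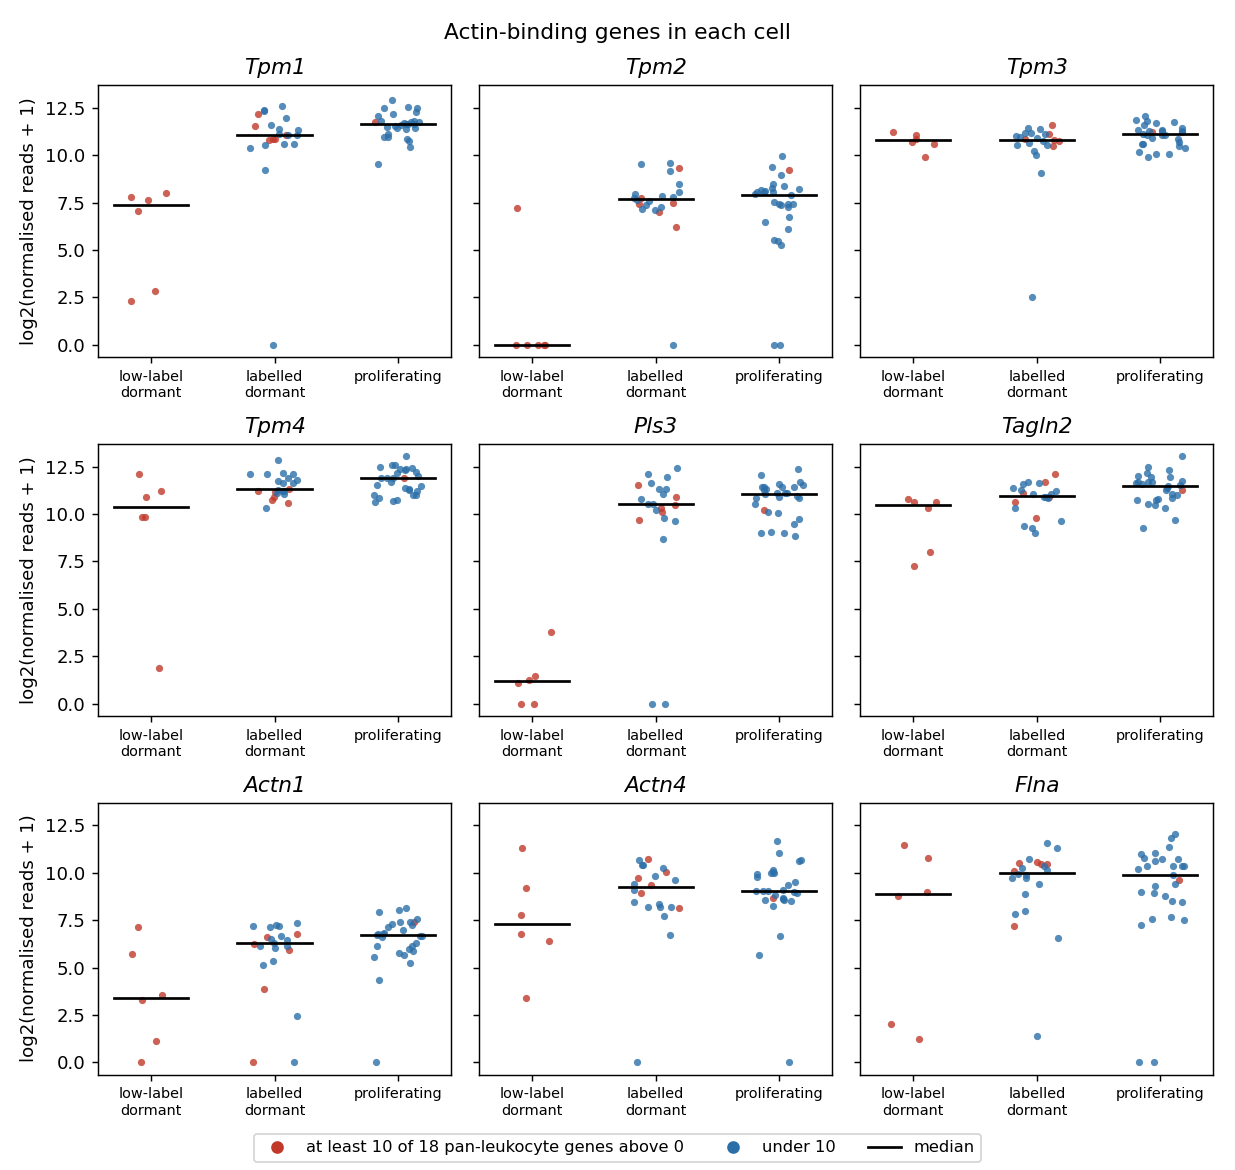
Normalised reads of 9 actin-binding genes in each cell, on a log2(value + 1) axis, in low-label dormant (n = 6), labelled dormant (n = 22) and proliferating (n = 29) cells; points are cells, coloured by the number of pan-leukocyte genes above 0, and black lines are medians. Tpm1, Tpm2 and Pls3 are at most 253, 148 and 12.5 in low-label cells, while Tpm3 lies inside the proliferating range in 6 of 6 and Tagln2 in 4 of 6 of them.

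Tagln2 lies on chromosome 1 (172500047 to 172507380, plus strand) and encodes transgelin-2, a calponin family protein that binds actin filaments and is found in many cell types. The low-label cells held 152, 254, 1282, 1579, 1604 and 1751 normalised reads. Labelled dormant cells held 506 at the lowest, 2017 at the median and 4466 at the highest. Proliferating cells held 614 at the lowest, 2896 at the median and 8458 at the highest. In 4 of the 6 low-label cells Tagln2 was inside the proliferating range, and the lower pair came from mice 369 and 244.

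Actn1 and Actn4 encode the non-muscle alpha-actinins, antiparallel dimers that cross-link filaments in stress fibres and at adhesions. Actn1, on chromosome 12 (80167547 to 80260371, minus strand), was low throughout, with medians of 9.7 in low-label, 76.7 in labelled dormant and 103 in proliferating cells. Its highest values in these groups were 138, 165 and 284, in the same order, and each group reached down to 0, so the groups overlapped. Actn4, on chromosome 7 (28893248 to 28962340, minus strand), had 9.4, 83.8, 109, 220, 595 and 2528 in the low-label cells. Among labelled dormant cells the values were 0 at the lowest, 602 at the median and 1703 at the highest. Among proliferating cells the values were 0 at the lowest, 528 at the median and 3256 at the highest. The Actn4 ranges of the 3 groups overlapped, and the low-label cells spread widely within them.

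Flna lies on chromosome X (74223461 to 74249820, minus strand) and encodes filamin A, a long dimer that cross-links filaments at wide angles and anchors them to membrane proteins. The low-label cells held 1.3, 3.1, 439, 505, 1770 and 2845 normalised reads. In the labelled dormant group it was at 1.6 at the lowest, 1037 at the median and 3049 at the highest. In the proliferating group it was at 0 at the lowest, 951 at the median and 4212 at the highest, and 2 of them, from mice 268 and 288, were at 0. No group stood apart for Flna.

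Set as a difference of medians on the log2(value + 1) scale, low-label minus labelled dormant cells, Pls3 differed by −9.35, Tpm2 by −7.67 and Tpm1 by −3.71. Actn1 differed by −2.87, Actn4 by −1.95, Flna by −1.13, Tpm4 by −0.93, Tagln2 by −0.50 and Tpm3 by −0.041. The median over all 11843 genes tested was −1.03, and 35.1% of them differed by less than −3 and 4.26% by more than 3, so the share of 3 of 9 genes below that bound was close to the background. What varied was the spread inside the families: of the 4 tropomyosins, Tpm1 and Tpm2 were below the median of all genes, Tpm4 was close to it and Tpm3 above it. The low-label and labelled cells were partly from different mice, and no test was made.

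Every low-label cell had at least 10 pan-leukocyte genes above 0, so low label without leukocyte transcripts could not be looked at. Leukocyte transcripts with the label present could be, since 6 labelled dormant cells also had at least 10 of these genes above 0. The 6 came from 3 mice and had monocyte and macrophage genes summing to between 28.3 and 118375. In them Tpm1 held 1797 at the lowest, 2000 at the median and 4608 at the highest, against 0, 2175 and 6122 in the 16 labelled dormant cells with under 10. Pls3 held 812 at the lowest, 1352 at the median and 2932 at the highest, against 0, 1618 and 5604 in the 16. The cell with all 18 pan-leukocyte genes above 0 had a Tpm1 value of 4608 and a Pls3 value of 1271, inside the proliferating range for both. Over the 9 genes the difference of medians, 10 or more minus under 10, lay between −0.66 for Tpm4 and 0.75 for Actn4 on the log2(value + 1) scale. Over all genes 2.61% differed by less than −3 and 10.8% by more than 3. In each of these 6 cells Tpm1 and Pls3 were above the highest low-label value. Whether such a well held more than 1 cell was not tested.

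The labelled dormant cell of mouse 452 with no Tpm1 read was the exception for Tpm1 among labelled cells. Its eCFP value of 349 was the lowest of the labelled dormant cells, and the nearest dormant cell under the threshold of 100 was a cell of mouse 369 at 87.6. That mouse 452 cell had Tpm1, Tpm2, Pls3, Actn1 and Actn4 at 0, Tpm3 at 4.8 and Flna at 1.6, with Tpm4 at 1270 and Tagln2 at 506. It had 2984 genes above 0, the fewest of the labelled dormant cells, from 1884383 recovered reads. The low-label cell at 87.6 had Tpm1 at 220, Tpm3 at 1849, Tpm4 at 920 and Pls3 at 1.2. The proliferating cell with the lowest eCFP value, 327, also from mouse 452, had Tpm1 at 5066 and Pls3 at 531, both within the proliferating range.

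Per kilobase of exon, a scale that allows levels of different genes to be compared, Tpm4 was the highest of the 9 genes in the 51 labelled cells of both states, with a median of 1439 and quartiles of 1021 and 2039. Tagln2 followed with a median of 1153, and its quartiles overlapped those of Tpm4. Pls3, Tpm1 and Tpm3 formed the next level, with medians of 454, 442 and 339 per kilobase and overlapping quartiles between neighbours. Flna, Actn4 and Tpm2 had medians of 102, 86.5 and 72.1, and again the quartiles of neighbours overlapped. Actn1 was the lowest, with a median of 17.7 per kilobase and an upper quartile of 25.7, below the lower quartile of 50.7 of Tpm2. All exons of a gene were counted in its length, so genes with many alternative exons may be understated.

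Within the tropomyosin family, Tpm4 gave the largest median share of the sum per kilobase in each group, 68.3% in low-label, 65.8% in labelled dormant and 65.5% in proliferating cells. These shares depend on the exon lengths used, 2203 bases for Tpm4, 6485 for Tpm1 and 6085 for Tpm3. Before division by length, medians over the 51 labelled cells were closer, at 3170 for Tpm4, 2866 for Tpm1 and 2061 for Tpm3. The Tpm1 share ranged from 0.0723% to 5.03% in low-label cells, with a median of 1.61%. It had a median of 17.3% in labelled dormant cells and of 17.6% in proliferating cells, where it ranged from 9.73% to 41.1%. The low-label cells lay below every proliferating cell in the Tpm1 share, and the medians of labelled dormant and proliferating cells were close together. The Tpm3 share ran the other way, with medians of 28.4% in low-label, 13.9% in labelled dormant and 13.4% in proliferating cells. The low-label cell of mouse 1184 was almost wholly Tpm3, at 99.3%, and the labelled cell of mouse 452 without Tpm1 almost wholly Tpm4, at 99.9%.

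**Figure D2:**
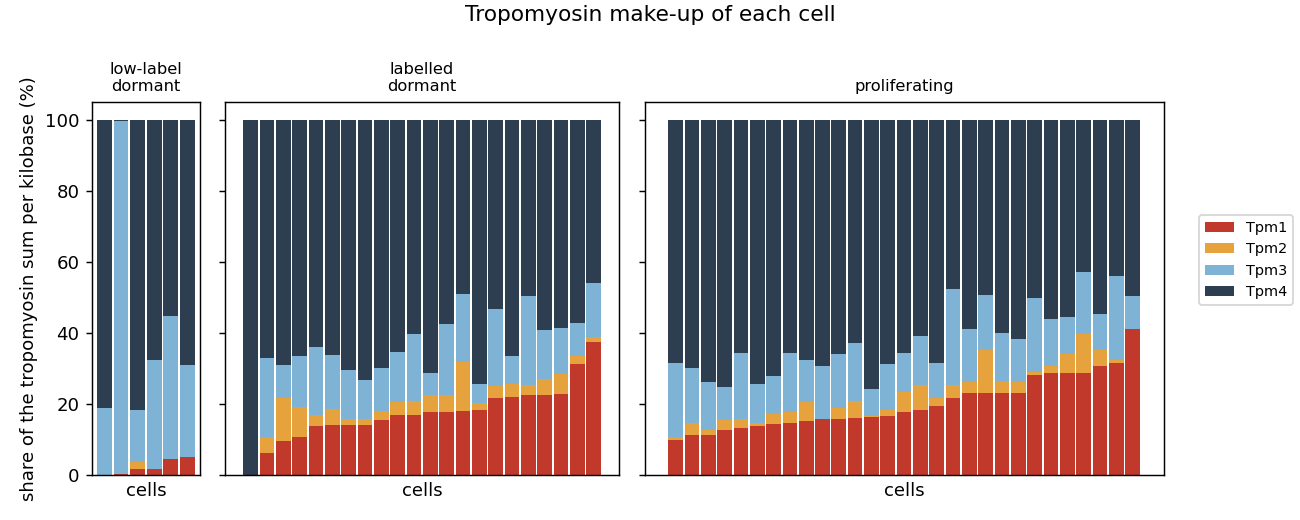
Share of each tropomyosin gene in the tropomyosin sum per kilobase of exon (y axis, percent), 1 bar a cell, for low-label dormant (n = 6), labelled dormant (n = 22) and proliferating (n = 29) cells, ordered by the Tpm1 share within each panel. Tpm1 is at most 5.03% in low-label cells and at least 9.73% in proliferating cells.

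For the comparison of states the mouse was the replicate, because cells of a mouse are not independent of each other. The cells of each mouse were averaged by state, as log2(value + 1). Across 11843 genes limma called 0 after Benjamini-Hochberg adjustment (0% of genes tested; 389 higher and 737 lower in dormant cells at an unadjusted p under 0.05), edgeR called 0 (665 higher and 118 lower unadjusted), and DESeq2 called 302 (2.55% of genes), 294 of them higher. None of the 9 genes was called by limma, edgeR or DESeq2. Of the 9 genes, 8 had lower dormant means, against 63.1% of all genes tested, and their median difference was −1.14, against −0.35 over all genes. The rule for choosing the genes used this contrast, so nothing is read from these counts.

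Tpm1 averaged 8.79 ± 1.49 in dormant and 11.45 ± 1.01 in proliferating mouse means (SD, n = 6 each), a difference of −2.66 (SE 0.67). By mouse, the dormant means were 9.70 in mouse 369, 7.53 in mouse 360, 7.33 in mouse 452, 10.89 in mouse 1185, 9.67 in mouse 1184 and 7.63 in mouse 244. The proliferating means were 11.50 in mouse 369, 12.49 in mouse 360, 11.49 in mouse 452, 11.63 in mouse 1185, 12.03 in mouse 268 and 9.55 in mouse 288. In each of the 4 mice with both states the dormant mean was the lower, and across all mice the groups overlapped, because the single proliferating cell of mouse 288 lay below 3 of the dormant means. Without low-label cells the difference was −1.05, and without the mouse 452 cell as well it was −0.13. On reads summed per mouse and state, in which cells with many reads weigh more, the Tpm1 difference was −0.98 by edgeR and −1.05 by DESeq2.

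Pls3 averaged 5.73 ± 4.26 in dormant and 10.87 ± 0.43 in proliferating mouse means, a difference of −5.14 (SE 1.30). Its dormant means were 0.72 in mouse 360 and 0 in mouse 244, whose dormant cells were all low-label, and between 6.92 and 9.76 in the other 4 mice. Its proliferating means lay between 10.24 and 11.55, above every dormant mean. Without low-label cells the dormant mean was 9.60 ± 1.86 (n = 4), the groups overlapped and the difference was −1.27, and without the mouse 452 cell as well it was −0.40. With all cells, summed reads gave a Pls3 difference of −0.97 by edgeR and −1.08 by DESeq2, far smaller than −5.14.

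Tpm2 averaged 4.68 ± 2.71 in dormant and 7.49 ± 1.08 in proliferating mouse means, a difference of −2.81 (SE 1.19), which was −0.31 without low-label cells. The groups overlapped with all cells, since the dormant mean of mouse 1185, at 7.95, was above 4 of the 6 proliferating means. Tagln2 averaged 10.16 ± 1.09 in dormant and 11.38 ± 0.73 in proliferating means, a difference of −1.22 (SE 0.54), which was −0.56 without low-label cells and −0.79 without mouse 244. With all cells Tagln2 was lower in the dormant cells of each of the 4 mice with both states, with differences between −1.92 and −0.37. The −1.92 was that of mouse 360, whose dormant cells were all low-label. Without low-label cells Tagln2 differed by −0.001 in mouse 369, −0.37 in mouse 452 and −0.51 in mouse 1185.

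Tpm3 averaged 10.21 ± 1.40 in dormant and 10.86 ± 0.62 in proliferating means, a difference of −0.65 (SE 0.59). Without low-label cells the Tpm3 difference was −0.75. With all cells it was −0.22 when mouse 452 was left out. Tpm4 averaged 10.80 ± 0.90 in dormant and 11.58 ± 0.54 in proliferating means, a difference of −0.78 (SE 0.48), which was −0.15 without low-label cells. Without low-label cells the 4 dormant means of Tpm4 had an SD of 0.19, the smallest of the 9 genes.

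Actn1 differed by −1.14 (SE 1.06) and Actn4 by −0.50 (SE 0.96), both smaller than the SD of the proliferating means (1.54 and 2.08). Without low-label cells these differences were −0.25 and 0.048, and without mouse 360 Actn1 differed by −0.72. Leaving out single mice gave Actn4 differences between −1.23 without mouse 268 and −0.0053 without mouse 360, so its value rested on single mice.

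Flna was the 1 gene of the 9 with the higher dormant mean, 8.88 ± 1.80 in dormant and 7.40 ± 4.09 in proliferating means (difference 1.48, SE 1.35). The sign rested on mice with few proliferating cells. The single proliferating cell of mouse 288 had no Flna read, and without that mouse the difference was −0.00058, while without mouse 452 it was 2.47. With the mouse as a block in the 4 shared mice all 9 genes were lower in dormant cells, against 76.5% of all genes. There Flna differed by −1.18, with dormant minus proliferating values of −3.49 in mouse 452, −1.4 in mouse 369, −0.30 in mouse 360 and 0.46 in mouse 1185.

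**Figure D3:**
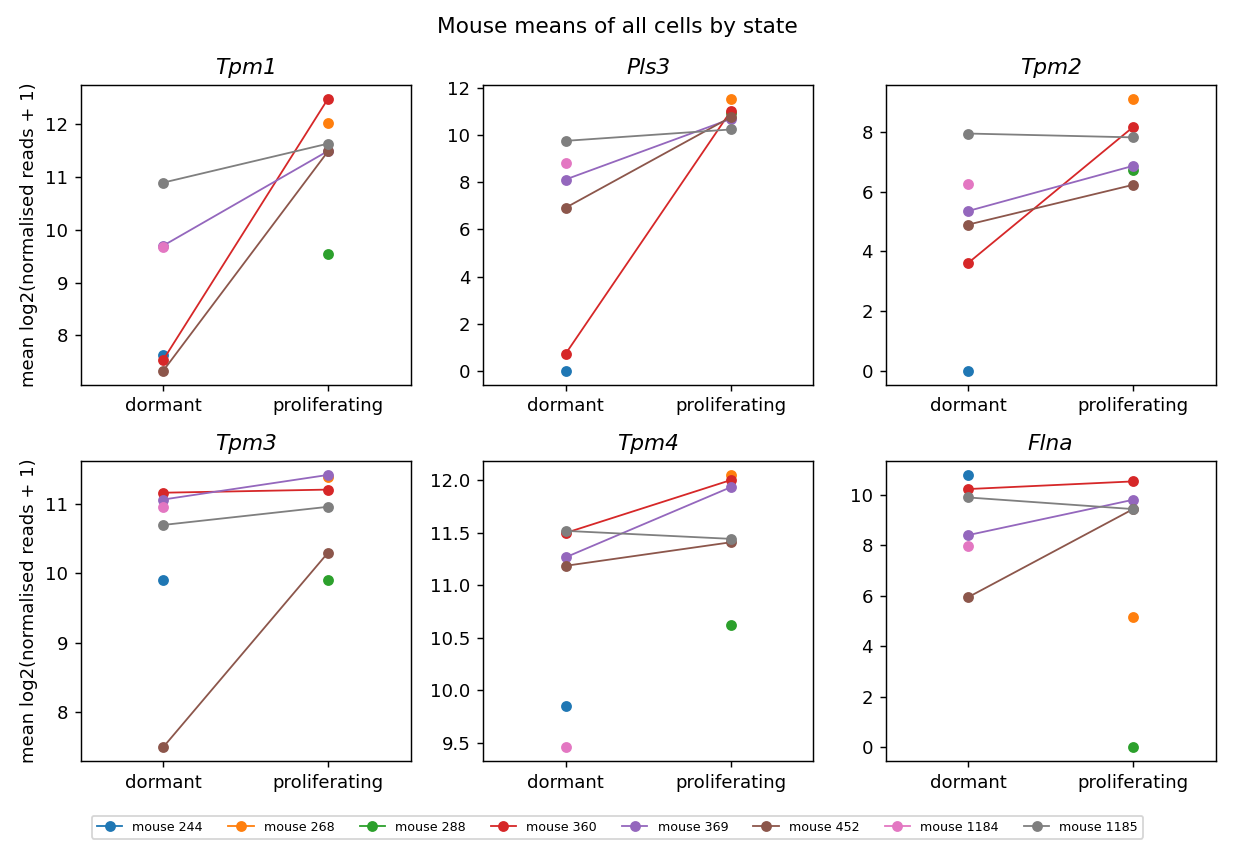
Mean log2(normalised reads + 1) of 6 genes over all cells of a mouse, in dormant and proliferating cells; each point is a mouse and lines join the 4 mice with both states. The Pls3 means of dormant cells (0 to 9.76) all lie below those of proliferating cells (10.24 to 11.55), and those of Flna overlap.

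For Tpm1, Tpm2, Tpm4, Pls3 and Tagln2 the removal of the low-label cells moved the difference by more than its standard error with all cells. With all cells the 9 differences had a median of −1.14. Without the 6 low-label cells, where 11595 genes were tested and limma called 0 (168 higher and 59 lower unadjusted), 7 of 9 genes were lower against 45.5% of all genes, and the members' median was −0.31 against 0.090 over all genes. Without leukocyte-rich cells, which also removed all low-label cells and left 13 dormant and 17 proliferating cells, 4 of 9 were lower against 33.3% of all 10503 genes tested, and the median was 0.17 against 0.50 over all genes. In that set Tpm1 differed by −0.18, Pls3 by −0.68, Tpm3 by −0.39 and Tagln2 by −0.50, while Tpm2, Tpm4, Actn1, Actn4 and Flna were higher in dormant cells, by between 0.17 and 2.83. Pls3, Tpm1, Tpm3 and Tagln2 were the genes lower in dormant cells in all of these sets.

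With the mouse as a block, leaving out the low-label cells left 3 mice with both states (369, 452 and 1185), and the counts differed from those without a block. There 9 of 9 genes were lower in dormant cells, against 55.9% of all 11393 genes, with a members' median of −0.98 against −0.11 over all genes. Tpm1 differed by −1.50, Actn4 by −0.70 and Flna by −0.98. Of these 3 mice, mouse 452 gave the lowest values for all genes but Tpm4 and Tagln2. Its dormant cells include the one with 2984 genes above 0. Mouse 452 had a dormant minus proliferating Tpm1 value of −4.16, against −0.74 in mouse 1185 and 0.39 in mouse 369. Its Flna value was −3.49, against 0.46 in mouse 1185 and 0.093 in mouse 369. The Pls3 value was −3.84 in mouse 452, −0.48 in mouse 1185 and 0.28 in mouse 369. Among labelled cells, then, Tpm1, Tpm2, Tpm4, Pls3, Actn4 and Flna were not lower in dormant cells of all 3 mice. Tpm3, Tagln2 and Actn1 were, but in mouse 369 Tagln2 differed by −0.001 and Actn1 by −0.014.

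**Figure D4:**
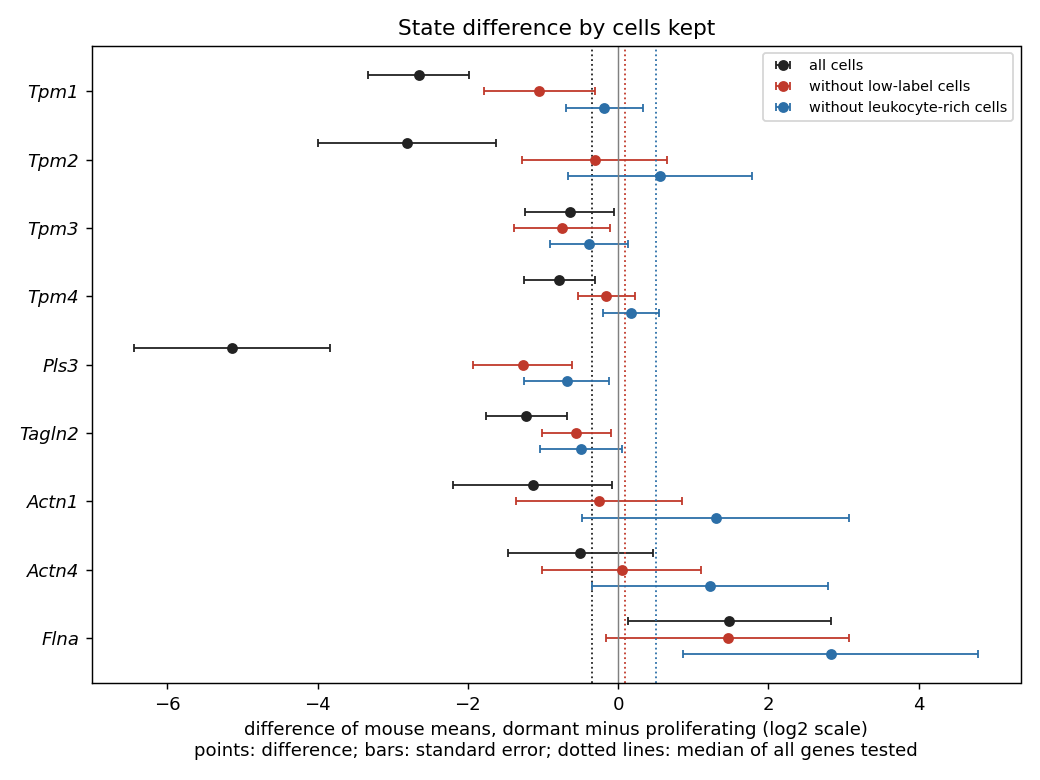
Difference of mouse means, dormant minus proliferating, in log2 units, for 9 genes with all cells, without low-label cells and without leukocyte-rich cells; bars are standard errors and dotted lines the median of all genes tested in each set. Pls3 lies at −5.14, −1.27 and −0.68 in these sets, and Flna is positive in each.

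Across single cells, positive rank correlations were frequent among genes in general. Over all pairs of the 7874 genes retained for ranking (above 0 in most labelled cells), Spearman's rho was positive for 71.7% in the 29 proliferating cells, with a median of 0.13, and for 65.5% in the 22 labelled dormant cells, with a median of 0.10. In the proliferating cells all 36 pairs of the 9 genes were positive, between 0.044 and 0.64 with a median of 0.32. Among the highest values were those of Actn4 with Tagln2 (0.64), Actn1 (0.61) and Flna (0.61) and of Tpm4 with Pls3 (0.60). In the labelled dormant cells 33 of 36 pairs were positive, with a median of 0.24, and Actn4 with Flna was the highest at 0.72. Tpm4 with Pls3, at 0.54 in labelled dormant cells, was also high in both states. Cells share mice and depth, and these values are a description. Over the 51 labelled cells the number of genes above 0 went with Flna (0.53), Actn4 (0.53), Pls3 (0.50), Tpm4 (0.46) and Actn1 (0.40), and with Tpm1 at 0.19. In the 29 proliferating cells alone it was at 0.67 with Actn1, 0.57 with Tpm4, 0.53 with Actn4, 0.47 with Flna and 0.22 with Tpm1. The proliferation gene Mki67 went with Flna (0.56), Actn4 (0.55), Actn1 (0.52) and Tpm4 (0.50) in proliferating cells, and with Tpm1 at 0.11. In labelled dormant cells Mki67 was at −0.17 with Flna, −0.071 with Actn4, 0.34 with Actn1, −0.060 with Tpm4 and −0.21 with Tpm1. The cell cycle gene Top2a, in proliferating cells, was at 0.13 with Flna, 0.22 with Actn4, 0.19 with Actn1, 0.10 with Tpm4 and −0.088 with Tpm1.

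**Figure D5:**
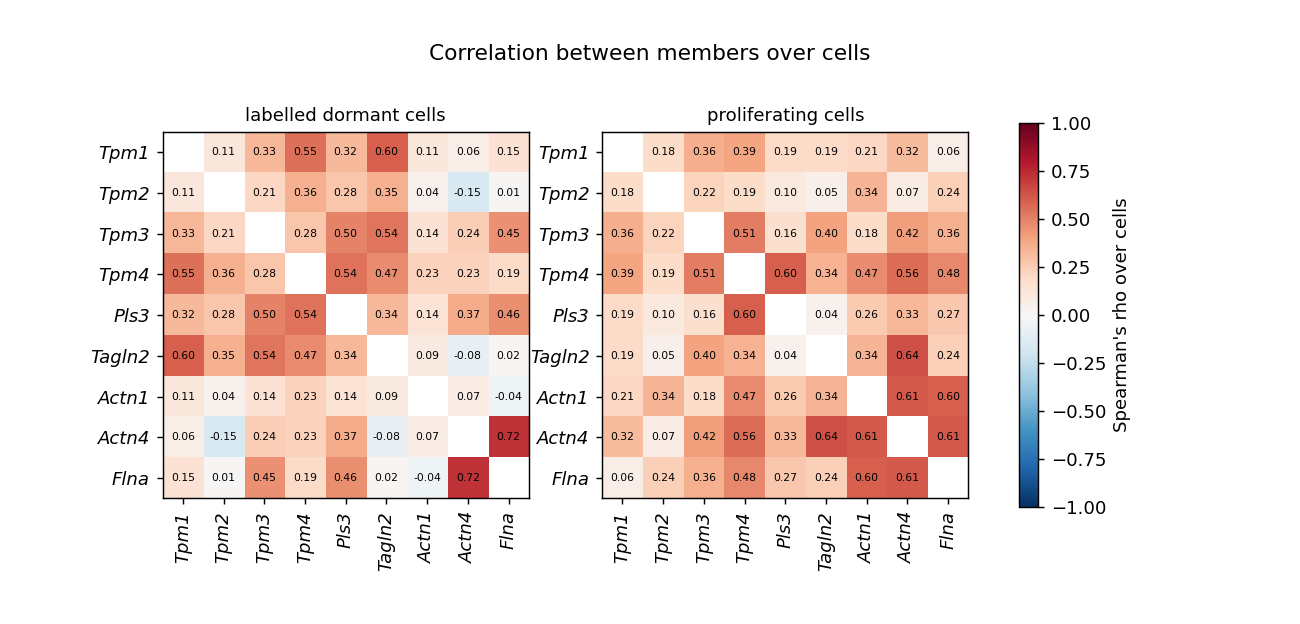
Spearman's rho between each pair of the 9 genes over labelled dormant cells (left, n = 22) and over proliferating cells (right, n = 29), coloured from −1 to 1. Actn4 and Flna are at 0.72 in labelled dormant and 0.61 in proliferating cells.

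Over the 51 labelled cells, the genes most like Tpm1 among 7865 ranked were Naa20 (0.62), Gm12372 (0.62), Chchd4 (0.58), C1qbp (0.57) and Mrpl19 (0.56). Those most like Pls3 were Zc2hc1a (0.70), Atad1 (0.70), Epb41l1 (0.68), Adk (0.67) and U2surp (0.66). The 9 members were left out of this ranking. Of the members, Tpm4 had the highest value with Tpm1 (0.48) and with Pls3 (0.53), both below the values listed.

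Of 107 further genes of the actin cytoskeleton, 86 were tested and 0 passed limma in either direction, with 38 lower in dormant cells, 44.2% of those tested against 63.1% of all genes, and a median difference of 0.17. Without low-label cells 84 were tested, 0 passed in either direction, and 32 were lower, 38.1% of those tested against 45.5% of all genes. The calponins, caldesmon and other filament-side binders, which occupy the filament beside tropomyosin, had 5 of 6 tested with 4 lower and a median of −0.94, and without low-label cells 1 of 5 was lower, again against 45.5% of all genes. Caldesmon (Cald1) had a median of 3.3 normalised reads in low-label, 1590 in labelled dormant and 1936 in proliferating cells, and calponin 3 (Cnn3) had medians of 2.7, 1162 and 1242 in the same order. Cald1 differed by −3.65 (SE 1.39) between states with all cells and by 0.19 without low-label cells. In contrast to Cald1, beta-actin (Actb) had medians of 9852 in low-label, 3866 in labelled dormant and 5729 in proliferating cells, and differed by 0.16 (SE 0.42) between states. The Arp2/3 list, whose genes branch filaments, had 14 of 15 genes tested with 6 lower and a median of 0.12, and the adhesion plaque linkers had 11 tested with 6 lower and a median of −0.22. The non-muscle myosin II genes had 4 of 7 tested with 1 lower and a median of 0.71, where the heavy chain gene Myh9 differed by 0.76 (SE 1.24). Serum response factor and its coactivators, which control many actin genes, had 3 of 3 tested with 1 lower, and Srf itself was near 0 in most cells, with medians of 0 in low-label, 1.8 in labelled dormant and 6.0 in proliferating cells.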

How the data were processed

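RNA of each sorted cell was amplified as full-length cDNA (SMARTer), with ERCC spike-ins added, and made into Nextera XT libraries, per the labels' protocols. STAR, RSEM and the builds GRCm38 and mm10 are given in the submitters' processing notes, without versions. The authors normalised with BASiCS, per the series text, and deposited a signal of normalised reads, in 1 table for the 57 cells and a separately normalised 1 for the 4 mice with both states. In both, 100% of the non-zero gene values fell on multiples of a cell's step within 0.01 reads, so whole reads were recovered. Spike-in features, 118 in the table of all cells, were left out.

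Tests covered genes detected in 6 or more cells and used limma 3.58.1 (trend, robust) on mouse means of log2(value + 1), without a block, with Benjamini-Hochberg adjustment at 0.05. The log2(value + 1) scale understates changes of low genes, and cells at 0 enter the means. edgeR 4.0.16 and DESeq2 1.42.0 on reads summed per mouse and state were alternatives. Other pseudocounts, filters, averaging, weights, scaling, cells and mice were alternatives too. In their main form, limma, edgeR and DESeq2 were also run on redrawn cells in which the values of some genes had been multiplied. The other alternatives were not run on such data. Pairing comes from the labels, since both states came from the same mouse in 4 mice. Deviations of paired means correlated at 0.36, 0.086, 0.014 and −0.0070 in mice 369, 452, 1185 and 360. Cells of a group come from separate mice only in part, and means of mice 244 and 288 rest on 1 cell.

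The genes, lists and the eCFP threshold of 100 were chosen with earlier results of these data known. All listed genes are named, and of the further actin genes those with high mean values in their list or in a short fixed set. The pan-leukocyte list of 18 genes was written for this report and may differ from the list behind the earlier results. The RefSeq promoter table names GRCm38.p6, and gene positions and exon lengths come from GENCODE vM21 on GRCm38. Of 12887 gene identifiers 12852 matched a symbol. Of 32 proliferating cells stated in the series text, 29 were analysed here. Other tools were Python 3.11.15 with numpy 2.4.6, scipy 1.17.1, matplotlib 3.10.9 and pandas 2.3.3, and R 4.3.3.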

Additional observations from a re-analysis of the deposited data

Results flagged for a closer look

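Mouse means of the 9 genes by state, with all cells and without low-label cells, gave 27 groups to check for a mean far from the others. In these, 6 such means were found. Chance alone marks about 1 in 20 independent groups. These groups share cells and mice, so the 6 cannot be set against that rate. With all cells, Tpm1 in proliferating cells of mouse 288 was 9.55, with the nearest other mean at 11.49, and rests on 1 cell. Tpm3 in dormant cells of mouse 452 was 7.50, with the nearest at 9.91. Tagln2 in dormant cells of mouse 244 was 7.99, with the nearest at 10.11, and rests on 1 low-label cell. Without low-label cells, the dormant means of mouse 452 lay apart for Tpm2 (4.90, nearest 7.82), Tpm3 (7.50, nearest 10.69) and Flna (5.94, nearest 9.68). These 3 and the all-cell Tpm3 mean include the cell of mouse 452 that had 2984 genes above 0.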

How the results depend on the processing

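Under 26 alternatives, Tpm1 (−3.04 to −0.13), Pls3 (−6.30 to −0.40), Tagln2 (−1.39 to −0.30) and Tpm3 (−1.08 to −0.064) stayed lower in dormant cells in each. Tpm4 was lower in 23 of them, Tpm2 and Actn1 in 22, Actn4 in 21 and Flna in 6. Most of the 26 alternatives kept some or all of the low-label cells, and Tpm1 and Pls3 were chosen for this direction. The members' median of −1.14 was 0.17 without leukocyte-rich cells and 0.17 without low-label and leukocyte-rich cells, which are the same cells. Alternatives chosen after seeing the data gave 0.011 without cells with at least 10 pan-leukocyte genes and −0.046 without low-label cells and the mouse 452 cell. Leaving out each mouse gave medians of −1.33 to −0.79 and 0 called genes each time. limma called 0 genes under each of its alternatives, and DESeq2 called 302; in all runs 0 members were called. With the mouse as a replicate block in the 4 shared mice, the members' median was −1.56 with 9 of 9 lower, against −0.72 over all genes; the pairing changed no call. Without low-label cells the blocked median was −0.98, also with 9 of 9 lower, against −0.11. In that set most of the 9 genes were not lower in every mouse. Summed reads gave members' medians of −0.49 (edgeR) and −0.55 (DESeq2). Median-of-ratios rescaling moved the median of all genes to −0.14, against −0.35 as deposited, and the members' median to −0.68. The cause of these shifts was not tested beyond the cells each setting removes. Values of Pls3 and Tpm2 in low-label cells rest on 0 to 65 reads, so their log2 differences depend on the added 1.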
